A study of Sus scrofa with 8 samples.

Results

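The genes described here are a set used to follow epithelial-mesenchymal transition (EMT) and the switch between epithelial and neural cadherin, measured by RNA-seq in porcine induced pluripotent stem cells with and without overexpression of IRF-1. The set was listed by symbol as CDH1, CDH2, EPCAM, VIM, SNAI1, SNAI2, ZEB1, ZEB2, TWIST1 and ESRP1. Of these 10 genes, 8 have an identifier in the pig Ensembl gene names, among 24358 rows of the deposited count table. ZEB2 and TWIST1 have none there, and for them the row lying at the RefSeq locus of the gene on the same genome build (Sscrofa11.1) was taken and is named as such.

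All 4 libraries came from DOX-hLIF-2i piPSCs, made from porcine embryonic fibroblasts (PEFs) with an OCT4-tdTomato reporter by doxycycline-dependent lentiviral OSKM factors, and grown with LIF, inhibitors and doxycycline (the labels name the LCDMV system). The IRF-1 overexpressing cells (replicates 1 and 3) were transfected with PB-CAG-IRF1-Flag and a transposase plasmid, so a constitutive promoter drives a tagged pig IRF1 carried by a transposon. The control cells (replicates 6 and 8) received the vector PB-CAG-Flag, and puromycin was used to select both. Feeder cells were depleted by letting them attach before the suspended cells were collected. The genotype in the labels reads overexpression for all 4 libraries, and the grouping follows the rule set for the comparison and the assignment in the study. The libraries held 24923319, 20858333, 15925429 and 17097669 counts in overexpressing replicates 1 and 3 and control replicates 6 and 8. Nothing in the labels says that the replicates were separate cultures, so p-values measure the spread between these libraries, which may be technical.

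CDH1 (E-cadherin) and CDH2 (N-cadherin) are calcium-dependent adhesion proteins that hold like cells together and are tied to actin through catenins. In EMT, transcription factors of the SNAI, ZEB and TWIST families repress CDH1 and other epithelial genes, while CDH2, vimentin and matrix genes rise. Pluripotent stem cells of several species depend on E-cadherin for compact colonies, and ESRP1 directs the splice forms typical of epithelia.

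IRF1 was examined first because of the genotype label. Its counts were 8206 and 5485 in the overexpressing replicates and 55 and 56 in the controls, which is 6.46 on the log2 scale (SE of the fit 0.21, Benjamini-Hochberg adjusted p = 3.65e-05, edgeR quasi-likelihood test). Both overexpressing libraries were far above both controls, and the counts do not separate the introduced IRF1 from the endogenous gene.

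CDH1 was lower in the IRF-1 overexpressing cells, and the classical partner of the switch, CDH2, was lower as well. VIM and the EMT transcription factors that could be tested did not pass the threshold in either direction, and the epithelial splicing regulator ESRP1 was higher. Fold changes are always overexpressing over control, and the threshold for a call was 0.05 for the adjusted p together with a log2 size of 1 or more. Of the 9 rows of the set that had enough counts to be tested, 1 was called higher and 2 were called lower, while 8.61% of all 13250 genes tested were called higher and 10.6% lower, 19.3% in either direction. The calls over all genes numbered 1141 higher and 1410 lower, and 756 and 874 without overexpressing replicate 1. The smallest two-sided p that exact permutation of 2 and 2 libraries allows is 0.333, and the adjusted p values therefore draw on dispersion pooled over genes by edgeR. In CPM, the groups did not overlap for 68.6% of all genes tested, so separation of the groups is by itself common here.

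CDH1 (ENSSSCG00000025652, minus strand of chromosome 6, 18039318 to 18155990) had 631 and 1539 counts in overexpressing replicates 1 and 3 and 3753 and 4062 counts in control replicates 6 and 8. In CPM, which are counts scaled by library size and TMM factor, the group means were 49.7 ± 34.4 (SD, n = 2) with overexpression and 236 ± 5.63 (SD, n = 2) in the controls. The controls lay close together, both overexpressing libraries lay below them, and overexpressing replicate 1 was well below replicate 3, at 0.343 of its CPM. The fitted level was 4.76-fold lower, or -2.25 on the log2 scale (SE 0.42, 95% interval -3.23 to -1.27, Benjamini-Hochberg adjusted p = 0.00676, edgeR quasi-likelihood test). Leaving out overexpressing replicate 1 gave -1.66 and leaving out overexpressing replicate 3 gave -3.21, and the call was kept in both. In bulk RNA, fewer cells with CDH1 transcripts and fewer transcripts per cell cannot be told apart.

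CDH2 (ENSSSCG00000003722, minus strand of chromosome 6, 112396329 to 112628946) lies on the same chromosome. Its counts were 7378 and 7388 in the overexpressing replicates and 10392 and 12160 in the controls. The means were 326 ± 41.2 CPM with overexpression and 680.2 ± 21.3 CPM without (SD, n = 2 each), with both overexpressing libraries below both controls. Overexpressing replicate 1 was at 0.836 of the CPM of replicate 3, against 0.343 for CDH1. The log2 fold change was -1.06 (SE 0.14, 95% interval -1.39 to -0.73, Benjamini-Hochberg adjusted p = 0.00162, edgeR quasi-likelihood test), just past the limit of 1. Without overexpressing replicate 1 it was -0.92, inside the limit, and a test of the fold change against the limit itself (glmTreat in edgeR, Benjamini-Hochberg) gave an adjusted p of 0.726, while omission of any 1 library gave 0.000226 to 0.0230 in the quasi-likelihood test. A gain of CDH2 was thus not measured, and its interval lies below zero.

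Levels of different genes were compared per exon length, on the TPM scale. CDH2 was more abundant than CDH1 in every library. The ratio of CDH2 to CDH1 in TPM was 12.9 and 5.29 in overexpressing replicates 1 and 3 and 3.05 and 3.30 in control replicates 6 and 8. The ratio was therefore higher in the overexpressing cells with no overlap, while both of its terms were lower: the summed TPM of CDH1 and CDH2 was 150.4 and 201 in the overexpressing replicates and 434 and 481 in the controls. CDH1 made up 7.20% and 15.9% of that sum in overexpressing replicates 1 and 3 and 24.7% and 23.3% in the controls. Over 21 cadherin genes with a row in the table, the summed level was 273 and 317 TPM in the overexpressing replicates against 729.9 and 725 TPM in the controls. The share of CDH2 in that sum was 51.1% and 53.3% against 44.8% and 51.0%, and that of CDH1 was 3.96% and 10.1% against 14.7% and 15.4%. The share of CDH1 was thus lower in both overexpressing libraries. That of CDH2 was slightly above both controls although its level was lower. The gap between overexpressing replicate 1 (51.1%) and control replicate 8 (51.0%) was smaller than that between the controls, so no difference in this share is shown.

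**Figure D1:**
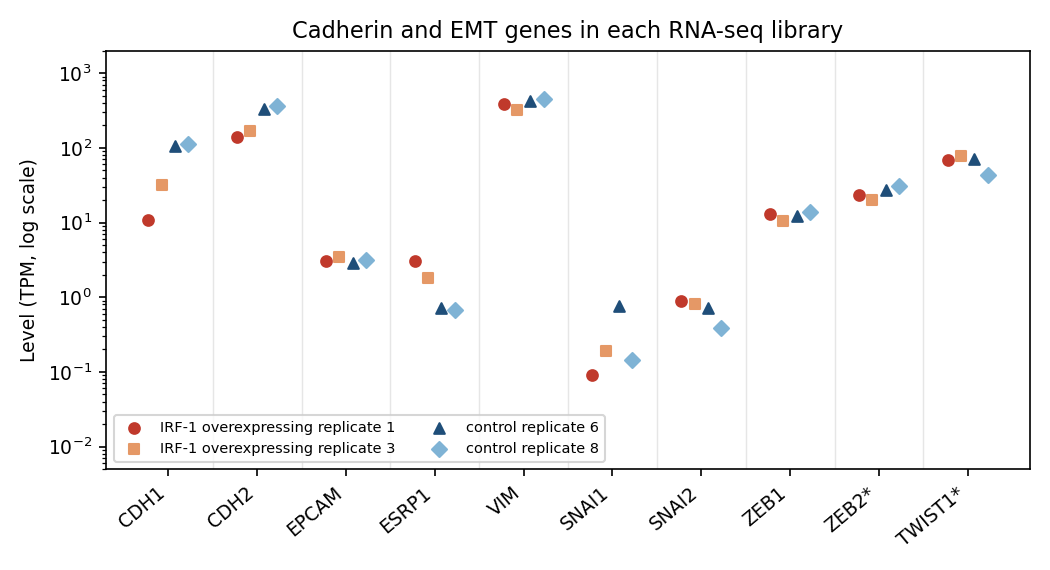
Level of each gene of the set in TPM (log axis) in every library, 1 point per library; asterisks mark rows taken by RefSeq locus. CDH1 and CDH2 lie lower and ESRP1 higher in the overexpressing libraries, whereas the VIM points lie between 320 and 447 TPM.

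Among the other epithelial genes, EPCAM encodes an adhesion protein of simple epithelia and of pluripotent cells. EPCAM (ENSSSCG00000008429, chromosome 3) had 198 and 187 counts in the overexpressing replicates and 113 and 129 in the controls, or 8.48 ± 0.721 CPM against 7.30 ± 0.101 CPM (SD, n = 2 per group). It was therefore a low transcript in every library, and it was not lower where CDH1 was lower. Its log2 fold change was 0.21 (95% interval -0.38 to 0.81, Benjamini-Hochberg adjusted p = 0.574, edgeR quasi-likelihood test), so a fall past the limit of 1 lies outside the interval.

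ESRP1 (ENSSSCG00000006099, minus strand of chromosome 4, 41991538 to 42060757), the RNA-binding protein that maintains epithelial splicing, had 202 and 99 counts in the overexpressing replicates and 28 in each control. The means were 6.44 ± 2.38 CPM with overexpression and 1.70 ± 0.135 CPM without (SD, n = 2 each). Both overexpressing libraries were above both controls, and replicate 1 was the higher of them, the reverse of the order seen for CDH1. The log2 fold change was 1.93 (SE 0.40, 95% interval 1.00 to 2.85, Benjamini-Hochberg adjusted p = 0.00986, edgeR quasi-likelihood test). Without overexpressing replicate 1 it was 1.50 and no longer called (Benjamini-Hochberg adjusted p = 0.0919, same edgeR test, against 0.00711 to 0.0154 without each of the other libraries).

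VIM (ENSSSCG00000011033, chromosome 10, 43517283 to 43530623) encodes vimentin, the intermediate filament of mesenchymal cells. Its counts were 25724 and 17794 in the overexpressing replicates and 17258 and 18760 in the controls. At 945.4 ± 127 CPM (SD, n = 2) against 1089 ± 22.6 CPM (SD, n = 2), both overexpressing libraries were slightly below both controls. Of all genes tested, 68.6% likewise did not overlap between groups. The log2 fold change of VIM was -0.20 (SE 0.14, 95% interval -0.52 to 0.12, Benjamini-Hochberg adjusted p = 0.310, edgeR quasi-likelihood test). Omission of any 1 library gave values from -0.33 to -0.07, and the interval holds no rise past the limit of 1.

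The transcription factors that repress CDH1 in EMT were measured at very different depths. SNAI1 had 4 and 7 counts in the overexpressing replicates against 20 and 4 in the controls, so the gene did not enter the test and the groups overlapped. SNAI2 had 56 and 41 counts in the overexpressing replicates and 27 and 15 in the controls. Its log2 fold change of 0.72 had a wide interval, -0.38 to 1.81, and did not pass (Benjamini-Hochberg adjusted p = 0.297, edgeR quasi-likelihood test), so neither a change past the limit nor its absence could be shown at this depth.

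ZEB1 (ENSSSCG00000011025) had 462 and 306 counts in the overexpressing replicates and 259 and 303 in the controls, with overlapping groups of 16.7 ± 2.75 CPM and 17.0 ± 0.528 CPM (SD, n = 2 per group). The log2 fold change was -0.02 (95% interval -0.51 to 0.47), and its sign turned when overexpressing replicate 3 (0.14) or control replicate 8 (0.02) was left out. The row at the ZEB2 locus (ENSSSCG00000021343, chromosome 15) had 2690 and 1939 counts in the overexpressing replicates and 1887 and 2239 in the controls, a log2 fold change of -0.30 (95% interval -0.64 to 0.03). In CPM the groups did not overlap, as for 68.6% of all genes tested, with both overexpressing libraries of this row slightly below both controls. Of its 11296 exon bases, 10441 lie within the RefSeq locus, and 284 are shared with an unnamed row on the same strand, where the assignment of reads is uncertain.

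The row at the TWIST1 locus (ENSSSCG00000015370, chromosome 9, 88289407 to 88290015) had 430 and 410 counts in the overexpressing replicates and 271 and 170 in the controls. Control replicate 6, at 17.3 CPM, reached the level of the overexpressing libraries, and control replicate 8 was lower at 9.72 CPM. The log2 fold change was 0.45 (95% interval -0.22 to 1.13), with 0.93 when control replicate 6 was omitted (Benjamini-Hochberg adjusted p = 0.0259, edgeR quasi-likelihood test, inside the limit of 1 and so not called) and 0.10 when control replicate 8 was. For ZEB1 and the rows at the ZEB2 and TWIST1 loci, the edgeR quasi-likelihood test gave a Benjamini-Hochberg adjusted p of 0.944, 0.158 and 0.283. The lower level of CDH1 was thus measured beside no called rise of these factors. A rise past the limit of 1 still lies within the interval of the TWIST1 row and that of SNAI2, and SNAI1 was not tested.

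**Figure D2:**
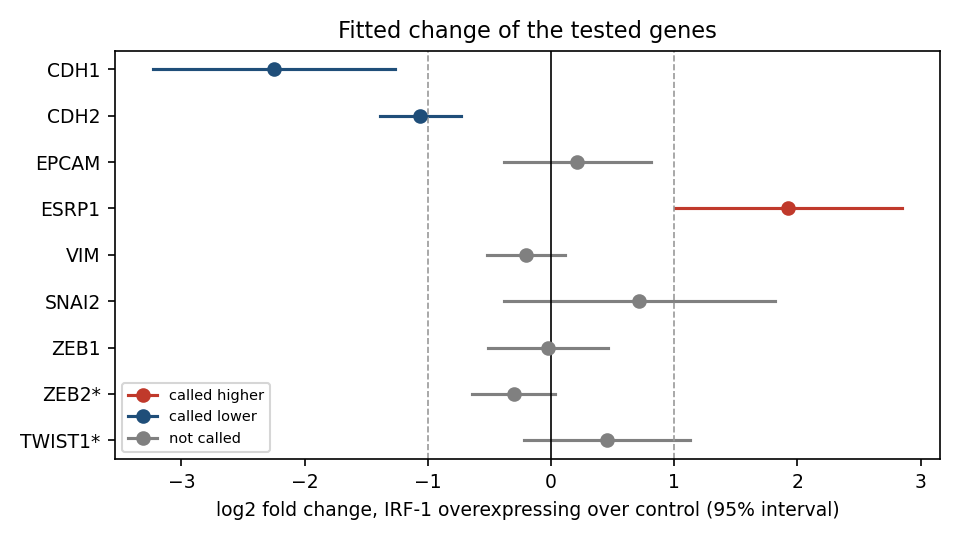
Fitted log2 fold change of the 9 tested rows, overexpressing over control (points), with 95% intervals (lines) and the limit of 1 in size (dashed); asterisks mark rows taken by RefSeq locus. The intervals of CDH1 and CDH2 lie below 0, that of ESRP1 above 0, and the other 6 include 0.

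By TPM, the order of levels in the control cells was VIM (436 ± 14.8), CDH2 (348 ± 29.9), CDH1 (109.5 ± 3.38), the TWIST1 row (57.6 ± 20.0), the ZEB2 row (28.9 ± 2.76), ZEB1 (13.1 ± 1.12) and EPCAM (3.04 ± 0.208), each SD with n = 2. ESRP1 (0.695 ± 0.0174, SD, n = 2), SNAI2 and SNAI1 were lower, all below 1 TPM, and did not differ from each other beyond the spread. In the overexpressing cells VIM (351 ± 44.0 TPM) and CDH2 (154 ± 20.9 TPM) still led, and CDH1 (21.4 ± 14.9 TPM) came after the TWIST1 row (73.7 ± 7.44 TPM), beside the ZEB2 row (21.6 ± 2.08 TPM) from which it did not differ beyond the spread (SD, n = 2 each). The TWIST1 row is only 609 exon bases long, so its TPM depends strongly on that short gene model.

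The other cadherins showed falls in most of the called genes and a rise in 1. Of 21 listed genes, 19 had a row and 11 were tested, of which 4 were called lower and 1 higher, and their median log2 fold change was -0.94 against -0.00162 for all genes tested. Calls made up 45.5% of the tested genes of the list, beside 19.3% of all genes. CDH13, a cadherin anchored to the membrane by lipid, had 109 and 160 counts in the overexpressing replicates and 1026 and 840 in the controls, a log2 fold change of -3.24 (SE 0.30). CDH6 was the most abundant of them and was at -1.46 on the log2 scale (SE 0.26), with CDH24 at -2.46 and CDH10 at -1.19, the latter at -0.87 and not called without overexpressing replicate 1. CDH18 went the other way, with 154 and 98 counts against 8 and 7, a log2 fold change of 3.57 (SE 0.44). CDH11, a mesenchymal cadherin, had a log2 fold change of -0.94 and CDH8 of 0.82, both inside the limit with Benjamini-Hochberg adjusted p of 0.00297 and 0.0125 by the edgeR quasi-likelihood test. CDH11 passed the limit at -1.03 without overexpressing replicate 3 and at -1.01 without control replicate 6, and CDH8 at 1.01 without control replicate 8.

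Of 22 catenins, nectins and other cadherin partners, 20 had a row and 18 were tested. Calls reached 33.3% of those tested, beside 19.3% of all genes. Called lower were 6 and called higher 0, with 0 higher also at an unadjusted p under 0.05 in edgeR and in DESeq2 and limma-voom, and the median log2 fold change was -0.57. CTNNB1 (beta-catenin), which binds the tail of both cadherins, had 767 and 786 CPM in the overexpressing replicates and 688 and 658 CPM in the controls. Its log2 fold change of 0.21 (95% interval -0.07 to 0.49) did not pass, and neither did EZR, the actin linker ezrin, at -0.14. CD9, a tetraspanin, had 1142 and 2368 counts in the overexpressing replicates and 8488 and 7487 in the controls, with overexpressing replicate 1 again the lower. It fell by 2.60 on the log2 scale (SE 0.38), and was at -2.08 without overexpressing replicate 1 and at -3.40 without overexpressing replicate 3. JUP (plakoglobin), VCL (vinculin) and the nectins NECTIN1 and NECTIN3 were at -2.26, -1.34, -1.37 and -1.02 on the log2 scale, all called. NECTIN3 was at -0.95 and not called without overexpressing replicate 1 or without control replicate 8, and the list then had 4 and 5 genes called lower.

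Mesenchymal genes were mostly lower in the overexpressing cells. Of 26 listed markers, 24 had a row and 18 were tested, of which 10 were called lower and 2 higher, with a median log2 fold change of -1.22 against -0.00162 for all genes. Calls were 66.7% of the genes tested in the list, beside 19.3% of all genes. The summed level of the list was 1268 and 1292 CPM in the overexpressing replicates and 2772 and 2294 CPM in the controls, so the groups did not overlap. SPARC, a secreted matrix protein and the most abundant gene of the list by CPM in the controls, had 3137 and 4129 counts in the overexpressing replicates and 14405 and 9973 in the controls, a log2 fold change of -2.20 (SE 0.28). ITGA5, the fibronectin receptor subunit, had 23 and 44 counts against 888 and 462 and fell by 4.79 on the log2 scale, with -4.14 without control replicate 6 and -5.47 without overexpressing replicate 3. MMP2, a matrix metalloproteinase, fell by 1.11 and was at -0.80 and no longer called without overexpressing replicate 1. LOX, which cross-links collagen, had a log2 fold change of -0.14 and was not called.

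The called rises of that list were 2 collagen genes. COL1A2 had 3458 and 1690 counts in the overexpressing replicates and 1006 and 699 in the controls, a log2 fold change of 1.08 (SE 0.30, Benjamini-Hochberg adjusted p = 0.0301, edgeR quasi-likelihood test). COL5A2 had 665 and 561 counts against 243 and 172, also a log2 fold change of 1.08 (SE 0.25, Benjamini-Hochberg adjusted p = 0.0147, same edgeR test). Both overexpressing libraries were above both controls for each gene, but neither call was kept without overexpressing replicate 1 or without control replicate 8. COL1A2 was then at 0.65 and 0.78, and COL5A2 at 1.10 and 0.80. COL1A1, the partner chain of COL1A2 in type I collagen, moved the other way with a log2 fold change of -1.97.

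Signalling by TGF-beta is the best known inducer of EMT. All 18 genes of that list were tested, with 2 called lower (TGFBR3 and SMURF1) and 1 higher (SKIL), and a median log2 fold change of -0.35. These calls are 16.7% of the list, beside 19.3% of all genes tested. SMURF1 lost its call without overexpressing replicate 1 (-1.31) or control replicate 6 (-0.85). TGFBR3, the co-receptor betaglycan, fell by 1.70 on the log2 scale (SE 0.19). SKIL, a repressor of SMAD proteins, rose by 1.16 (SE 0.26), but by 0.75 and without a call when overexpressing replicate 1 was left out. Without that library the list had 1 gene called lower and none higher, without control replicate 6 it had 1 lower and 2 higher, and without control replicate 8 it had 4 lower. TGFBR1, the type I receptor, and SKI were at -0.65 and -0.85, inside the limit, and TGIF1 at -0.40 turned to 0.17 without control replicate 6.

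**Figure D3:**
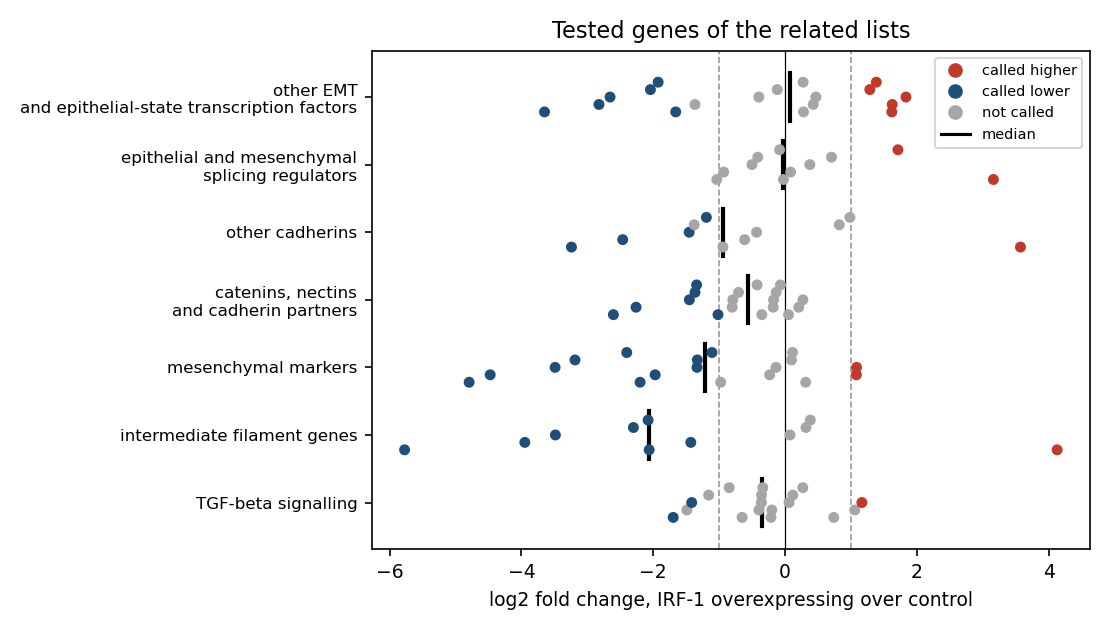
Log2 fold change, overexpressing over control, of every tested gene in 7 related lists (1 point per gene, spread vertically for legibility), with the median of each list as a black bar and the limit of 1 in size dashed. The medians run from -2.06 for intermediate filament genes to 0.08 for the other transcription factors.

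Other transcription factors of EMT and of epithelial state moved in both directions. Of 28 listed, 26 had a row and 18 were tested, with 5 called higher and 6 lower, and a median log2 fold change of 0.08. Called genes were 61.1% of those tested in the list, beside 19.3% of all genes. SIX2, a homeobox factor of embryonic mesenchyme, had 861 and 645 counts in the overexpressing replicates and 135 and 171 in the controls, a log2 fold change of 1.83 (SE 0.20). PRRX1, a homeobox factor that can induce EMT, rose by 1.62 (SE 0.24), with 1399 and 741 counts against 245 and 250. ID3, an inhibitor of basic helix-loop-helix factors such as TCF3, had 219 and 431 counts against 3772 and 2235 and fell by 3.65 (SE 0.45), with -3.12 without control replicate 6 and -4.38 without overexpressing replicate 3. TCF3 (E2A) and the corepressor gene CTBP1, both of which act on the CDH1 promoter in other systems, were at 0.27 and 0.28 and were not called.

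Among 12 other splicing regulators of epithelial and mesenchymal cells, 11 were tested, 2 were called higher and 0 lower, with a median log2 fold change of -0.03. Called genes make up 18.2% of those tested in the list, beside 19.3% of all genes. At an unadjusted p under 0.05 in edgeR, 4 were higher and 2 lower, and DESeq2 and limma-voom each called 0 lower. RBFOX1 had 56 and 91 counts in the overexpressing replicates and 7 and 5 in the controls, a log2 fold change of 3.16 (SE 0.57), and MBNL3 rose by 1.71, a call lost without overexpressing replicate 1 (1.61). The abundant regulators SRSF1, PTBP1 and CELF1 were at 0.08, -0.03 and -0.08 and were not called, and PTBP1 turned to 0.03 without overexpressing replicate 1 and to 0.09 without control replicate 8. ESRP2, the close relative of ESRP1, had 7 and 14 counts against 16 in each control and a log2 fold change of -1.04 that did not pass (Benjamini-Hochberg adjusted p = 0.226, edgeR quasi-likelihood test). Without overexpressing replicate 1 this list had 1 gene called higher, and without overexpressing replicate 3 or control replicate 8 it had 1 called lower.

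Among intermediate filament genes other than VIM, 16 were listed, 12 had a row and 11 were tested, with 7 called lower and 1 higher and a median log2 fold change of -2.06. Calls were 72.7% of the tested genes, beside 19.3% of all genes. Of the listed keratins of simple epithelia, KRT8 and KRT18 moved with CDH1 between groups and between the overexpressing replicates. KRT7 was not tested and KRT19 had no row. KRT8 had 6213 and 21095 counts in the overexpressing replicates and 187722 and 130983 in the controls, and KRT18 had 343 and 1843 against 55405 and 35599. For both, overexpressing replicate 1 was the lowest library and replicate 3 the next, as for CDH1. KRT8 fell by 3.95 on the log2 scale (SE 0.61), with -3.25 without overexpressing replicate 1 and -5.28 without overexpressing replicate 3. KRT18 fell by 5.77 (SE 0.82), with -4.96 and -7.65 in the same order. NES (nestin) fell as well, at -2.06, and was called whichever library was omitted, whereas GFAP (-2.30) lost its call whichever library was omitted and PRPH (-2.08) without overexpressing replicate 1 (-1.81). NEFL was at 0.07 and not called. INA, a neuronal filament gene, rose by 4.13 (SE 0.63), with 3.31 without overexpressing replicate 1 and 5.24 without control replicate 8.

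Markers of cell types that the cultures could hold were read in the same libraries. Of 11 simple epithelium and trophoblast markers, 10 had a row and 7 were tested, with 4 called lower (KRT8, KRT18, TFAP2C and DAB2) and 1 higher (TFAP2A). Their summed level was 311 and 1157 CPM in overexpressing replicates 1 and 3 and 15602 and 9556 CPM in control replicates 6 and 8, most of it from KRT8, and CDX2 had 0 counts in every library. GATA3 had 273 and 155 counts in the overexpressing replicates and 178 and 110 in the controls, and GATA2 had 47 and 18 against 30 and 17, with log2 fold changes of 0.07 and -0.05 that were not called. The sum thus moved with CDH1 between groups and between the overexpressing replicates. Among the markers tested, 71.4% were called, beside 19.3% of all genes. TFAP2A rose by 3.72 on the log2 scale (SE 0.26). Of these genes 5 also stand in another list, and their part in the change of CDH1 was not tested.

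Of 12 fibroblast and feeder markers, 11 had a row and 7 were tested, with 4 called lower (PDGFRB, DCN, S100A4 and COL1A1) and 2 higher (PRRX1 and COL1A2), and 9 of the listed genes stand in another list too. Calls were 85.7% of the tested genes of the list, beside 19.3% of all genes. The summed level was 202 and 129 CPM in the overexpressing replicates and 239.7 and 132 CPM in the controls, so the groups overlapped. The leading gene was COL1A2 in the overexpressing libraries (139 and 81.2 CPM) and PDGFRB in the controls (126 and 55.9 CPM). LUM, DCN and COL3A1, typical of fibroblasts, had at most 19 counts in any library, and DCN was not called without overexpressing replicate 3 (-3.18). PDGFRB had 28 and 62 counts against 1966 and 978 and fell by 5.49 on the log2 scale (SE 0.53), with -4.79 without control replicate 6 and -6.32 without overexpressing replicate 3. S100A4 fell by 2.40, with -1.83 without overexpressing replicate 1 and -3.28 without overexpressing replicate 3. Without overexpressing replicate 1 or control replicate 8, 1 gene of the list was called higher. The part of such cells in the levels of VIM and the collagen genes was not tested.

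Of 14 neural markers, 12 had a row and 11 were tested, with 4 called higher (TUBB3, NEUROG1, NEUROG2 and ELAVL3) and 1 lower (NES), ELAVL3 without a call when overexpressing replicate 1 was omitted (0.82). Their summed level was 885 and 715 CPM in the overexpressing replicates and 860 and 741 CPM in the controls, led by NCAM1, whose log2 fold change was -0.40 and which was not called. TUBB3 had 8726 and 2443 counts against 97 and 185, a log2 fold change of 4.80 (SE 0.54) with 3.81 when overexpressing replicate 1 was omitted and 5.39 when overexpressing replicate 3 was. NEUROG2 had 85 and 49 counts against 0 in each control, which makes it at least 12.3-fold higher, taking 3 counts per library as the floor. The median of the list was 0.55 with NEUROG2 at its fitted value or at this bound. Called genes were 45.5% of those tested in the list, beside 19.3% of all genes. CDH2 is also the cadherin of neural cells, and the part of neural transcripts in its level was not tested.

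Of 15 pluripotency markers, 8 had a row and 7 were tested, with 3 called lower (ESRRB, OTX2 and LIN28A) and 0 higher in edgeR, 1 higher at an unadjusted p under 0.05, and 1 higher in DESeq2 and in limma-voom. The edgeR calls were 42.9% of the markers tested, beside 19.3% of all genes, and the median log2 fold change was -0.31. The summed level was 1467 and 1473 CPM in the overexpressing replicates and 1583 and 1776 CPM in the controls, led by DNMT3B, which was not called at 0.27. LIN28A, the highest of them by TPM, fell by 1.34 on the log2 scale (SE 0.17) and ESRRB was at -4.19 (SE 0.31). NANOG had between 5 and 11 counts in every library and was not tested, and POU5F1 and SOX2 have no identifier in the gene names used. Of 7 endothelial markers 4 were tested, and TEK and TIE1 were called lower and 0 were higher by edgeR (0 also at an unadjusted p under 0.05, and 0 by DESeq2 and limma-voom). The edgeR calls were 50% of those tested, beside 19.3% of all genes. TEK fell by 3.91 on the log2 scale, with -3.36 without overexpressing replicate 1 and -4.71 without overexpressing replicate 3. TIE1 fell by 3.09 from 37 and 19 counts, a call that was lost without either overexpressing replicate (-3.50 and -2.79) or control replicate 6 (-2.44). Their summed level was 3.54 and 6.78 CPM against 59.3 and 65.5 CPM, mostly from TEK, and CDH5, the endothelial cadherin, had at most 1 count in a library.

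The genes whose pattern was nearest to that of CDH1 and of CDH2 were sought over 8236 genes that have a symbol and average 10 CPM or more, by Euclidean distance of centred log2(CPM + 1) over the 4 libraries. Nearest to CDH1 were EPHA3 (distance 0.277), an ephrin receptor, APOA1 (0.291), an apolipoprotein, and ANXA1 (0.300), a membrane-binding annexin. EPHA3 had 24.5 and 55.8 CPM in overexpressing replicates 1 and 3 and 218 and 219 CPM in the controls, so it shared both the difference between groups and the lower value of overexpressing replicate 1. Nearest to CDH2 were DAB2IP (0.0384), PXK (0.0591) and STT3B (0.0742). STT3B had 289 and 327 CPM against 640.0 and 685 CPM. The log2 fold changes were between -2.55 and -2.28 for the genes near CDH1 and between -1.11 and -1.09 for those near CDH2. Without overexpressing replicate 3, EPHA3, APOA1 and ANXA1 were at -3.15, -3.40 and -2.98, and without overexpressing replicate 1 DAB2IP and PXK were at -0.98 and -0.95, inside the limit. A likeness over 4 libraries is a description only.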

How the data were processed

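RNA-seq counts of 4 libraries were used. According to the submitters' processing notes and the study's methods, the authors mapped reads of oligo(dT) libraries to Sus scrofa 11.1 with HISAT2 2.0.4 and deposited whole-number counts per gene from featureCounts 1.6.4, not normalized. The deposited table also gives an exon length per gene in bases, an annotation value used here for TPM only. The annotation release, strand setting and treatment of multi-mapped reads are not given in the sources used here, so counts of overlapping or near-identical genes are uncertain. Shared exon bases were counted for the rows of the set. The ChIP-Seq libraries were not analysed here.

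The fit used edgeR 4.0.16 in R 4.3.3 on the whole table: filterByExpr by group, TMM factors (0.982 to 1.02), the quasi-likelihood test and Benjamini-Hochberg adjustment over 13250 genes. Standard errors (SE) are the log2 fold change divided by the square root of F, and 95% intervals use the test's degrees of freedom. CPM uses TMM-scaled library sizes. On that scale a single count was worth 0.0403 to 0.0640 CPM, and 3 counts per library (0.192 CPM in control replicate 6) were taken as the floor, which covers counting error only. The statistics were tested on simulated counts, and no result of that test is reported or used here. Figures were drawn with matplotlib 3.10.9, and tables were made in pandas 2.3.3 and numpy 2.4.6 under Python 3.11.15.

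The members of the set and the 12 gene lists were chosen with earlier results of these data known. Named are IRF1, the 10 genes, in each list the 3 tested genes highest in mean TPM and the called genes with the highest and lowest log2 fold change, and the 3 genes nearest to CDH1 and to CDH2. Any other gene named was chosen after its values had been seen. Alternatives were RLE, upper-quartile and library-total scaling, no filter, at least 1 CPM in 2 libraries, DESeq2 1.42.0, limma-voom (limma 3.58.1), glmTreat, no fold-change minimum, omission of mitochondrial and the 10 most counted genes, each library left out, and the cadherin ratio from counts without length. The result of 1 gene of the lists is not reported here by itself.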

Additional observations from a re-analysis of the deposited data

How the results depend on the processing

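The fall of CDH1 kept its direction and its call under all 14 alternatives to the fit, between -3.21 and -1.66 on the log2 scale with adjusted p between 2.17e-12 and 0.0414 in edgeR, DESeq2 or limma-voom (Benjamini-Hochberg). EPCAM, VIM, SNAI2 and the rows at the ZEB2 and TWIST1 loci kept their direction and stayed uncalled under each of them, and IRF1 stayed called. RLE, upper-quartile and library-total scaling, the filter on CPM and the omission of mitochondrial and most counted genes changed no call of the set. With glmTreat, 611 genes were called higher and 603 lower, and of the set 0 higher and 1 lower (CDH1). CDH2 (-1.06, adjusted p = 0.726) and ESRP1 (1.93, adjusted p = 0.0752) were not called by glmTreat in edgeR with Benjamini-Hochberg adjustment. That test also lowered the counts for other EMT transcription factors to 3 higher and 3 lower, for splicing regulators to 1 higher, for other cadherins to 2 lower, for cadherin partners to 2 lower, for mesenchymal markers to 0 higher, for TGF-beta signalling to 0 higher and 1 lower, for pluripotency markers to 1 lower and for fibroblast markers to 1 higher. It asks for a fold change past the limit, so fewer calls follow from its construction. With no fold-change minimum, 1842 genes were called higher and 2054 lower, and 1 splicing regulator lower, 2 other cadherins higher, 2 genes of TGF-beta signalling higher and 4 lower, and 2 neural markers lower. With no filter and with DESeq2, 2 genes of TGF-beta signalling and 1 pluripotency marker were called higher, the latter also with limma-voom, and the cause was not tested. CDH2 over CDH1 was 2.88 in the controls from counts without length and 3.18 in TPM.

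With each library left out in turn, the lone library of a group was assumed to vary like the other group. Genes called then ranged from 756 to 1156 higher and from 874 to 1548 lower, and the set had from 0 to 1 higher and from 1 to 2 lower. CDH2 ranged from -1.19 to -0.92, ESRP1 from 1.50 to 2.26 and ZEB1 from -0.19 to 0.14. Counts ranged from 1 to 2 higher and 0 to 1 lower for splicing regulators, 1 to 2 higher for other cadherins, 0 to 2 higher for mesenchymal markers, 0 to 2 higher and 1 to 4 lower for TGF-beta signalling, 0 to 1 higher for pluripotency markers, 1 to 2 higher for fibroblast markers and 1 to 2 lower for endothelial markers. The cause was not tested. Among the 53 other genes named by the stated rules, PTBP1 ranged from -0.13 to 0.09 and TGIF1 from -0.80 to 0.17. Of their values under all alternatives, 712 kept direction and call, 20 lost the call, 7 gained it and 3 turned direction. Genes named after their values had been seen, such as CDH10 and SMURF1, are not in these counts. Calls that those genes lost without 1 library are given with their results. No paired analysis was possible because the groups share no replicate numbers. Depth limits SNAI1 and SNAI2, which had at most 20 and 56 counts in a library.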
